A study of Mus musculus with 12 samples.

Results

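The comparison set the 4 libraries titled AD_TG against the 4 titled SJL_B6, 8 of the 12 libraries of a mouse series on meningeal lymphatic endothelium in a model of Alzheimer's disease. The other 4 libraries are titled AD_B6. Per the labels, the cells were lymphatic endothelial cells taken with magnetic beads from the meninges of mice aged 20 weeks, 3 to 4 mice being used for a strain, and a group has 4 libraries. The labels give every sample the strain C57BL/6 and name no allele, transgene, promoter or agent, and they do not spell out AD, TG, SJL or B6. The AD_TG and SJL_B6 titles differ in all their letters at once, so what the AD, the TG and the background letters stand for cannot be told apart in this comparison. Whether the 4 libraries of a title come from separate animals is not given in the sources used here, so the p-values measure only the spread between these libraries.

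The description rests on genes that were measured well in every library. A gene counted as well measured when its linear value, 2 to the power of the deposited log2 value minus 1, was 0.3 or more in all 12 libraries. This held for 4950 of 23238 gene symbols, and 4941 of them passed the filter of the test. The genes were read as families, meaning lists of genes that share a role or mark a cell type, because single genes varied widely between libraries of the same title.

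Meningeal lymphatic vessels run in the dura, the outer membrane around the brain, and drain fluid, proteins and immune cells from the brain's surroundings to the neck lymph nodes. Their endothelial cells are known for the transcription factor Prox1, the hyaluronan receptor Lyve1, the growth factor receptor Flt4 and the glycoprotein podoplanin, gene Pdpn. The series title names DSCR1, the human name of the gene Rcan1, whose protein binds and regulates calcineurin, the calcium-dependent phosphatase that activates NFAT transcription factors. DSCR1 lies on human chromosome 21 in the region linked to Down syndrome. The gene of the amyloid precursor protein also lies on human chromosome 21, and both genes lie on chromosome 16 of the mouse. QuantSeq reads a short stretch near the 3' end of each transcript, so a read count does not grow with transcript length.

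The groups overlapped in depth. Estimated assigned reads were 4205555 to 9269346 in AD_TG and 4068381 to 9254018 in SJL_B6, and 11536 ± 409 genes in AD_TG and 11430 ± 584 in SJL_B6 had reads (SD, n = 4; exact two-sided permutation p = 0.771, 0.943 after adjustment over 4 library measures; the smallest p that 4 against 4 allows is 0.0286). The marker genes of the sorted cell type were weak. The 20 genes of the lymphatic list made up 0.0816 to 0.135% of the linear total in AD_TG and 0.0966 to 0.11% in SJL_B6, and 1 of the 20 genes, Ackr2, had reads in none of the 12 libraries. Prox1, the defining factor, had reads in 0 of 4 AD_TG and 2 of 4 SJL_B6 libraries, which were SJL_B6 replicate 1 at a log2 value of 8.38 and replicate 4 at 0.88. Choroid plexus, border macrophage and fibroblast genes took larger shares: 2.23 to 8.73% of the linear total in AD_TG and 0.371 to 6.96% in SJL_B6 for choroid plexus, 0.455 to 0.744% in AD_TG and 0.509 to 0.923% in SJL_B6 for border macrophages, and 0.523 to 1.29% in AD_TG and 0.841 to 0.997% in SJL_B6 for meningeal fibroblasts. The deposited files are of 2 kinds. Those of AD_TG and SJL_B6 replicates 1 and 3 (and AD_B6 replicate 4) list small values above 0 for genes without reads, where the others list 0. Many family medians had opposite signs in the 2 kinds of file. Each kind holds 2 AD_TG and 2 SJL_B6 libraries, so the kind of file cannot be told apart from differences between these few libraries. In bulk RNA of this kind, fewer cells of a type and less RNA per cell cannot be told apart.

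No gene passed the test between AD_TG and SJL_B6. With limma's test and Benjamini-Hochberg adjustment over the 11955 genes tested, 0 of the 4941 well measured genes (0%) passed an adjusted p of 0.05, and the lowest adjusted p was 0.999. Unadjusted p-values below 0.05 were reached by 103 well measured genes (2.08%), against the 247 that a threshold of 0.05 gives on average where no gene differs. Of these, 64 (1.3%) were higher and 39 (0.789%) lower in AD_TG. All the well measured genes split almost evenly, 2529 higher (51.2%) and 2412 lower (48.8%) in AD_TG, with a median difference of 0.02 on the log2 scale. The 4 AD_TG values lay above all 4 SJL_B6 values for 60 genes (1.21%) and below all of them for 59 (1.19%). Over all 11955 genes tested, the groups did not overlap with AD_TG above for 1.46% and below for 1.07%, 53.3% were higher in AD_TG, and 1.84% were higher and 1.15% lower at an unadjusted p below 0.05. The adjusted p of every gene named below was 0.999 or above in this fit. Every family below is read against these shares, and no family is called different.

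**Figure D1:**
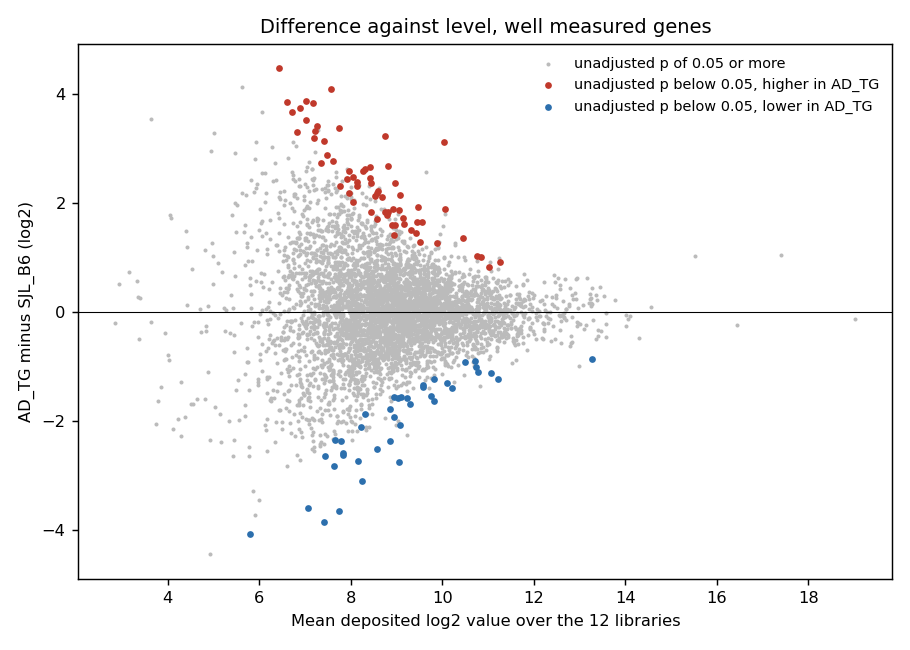
Each point is 1 of 4941 well measured genes, with its mean deposited log2 value over the 12 libraries on the horizontal axis and the AD_TG minus SJL_B6 difference (log2) on the vertical axis; the 64 red and 39 blue genes have an unadjusted limma p below 0.05 and 0 pass after adjustment. The cloud is centred near 0 and narrows as the level increases.

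Of 78 gene lists, 67 had 5 or more well measured members, and 35 of these 67 had a median above 0. The medians of most families lay close to that of all genes. In 34 of the 67 the median had opposite signs in the 2 kinds of file, in 43 it changed sign with 1 of the 8 libraries left out, and in 15 it did neither. Whether the kind of file plays a part in the family values was not tested. The highest were those of choroid plexus genes (1.03), blood-brain barrier endothelium (0.70), ABC transporters (0.58) and interferon-stimulated genes (0.50). The lowest were those of erythroid genes (-0.96), pineal and photoreceptor genes (-0.68), histones (-0.53) and MHC class II genes (-0.35). When the members of a family were averaged in each library, the 4 AD_TG means and the 4 SJL_B6 means did not overlap for 3 of the 67 families (4.48%). These were the chromosome 16 Down syndrome genes and the actin and myosin genes, with AD_TG above, and the histones, with AD_TG below.

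**Figure D2:**
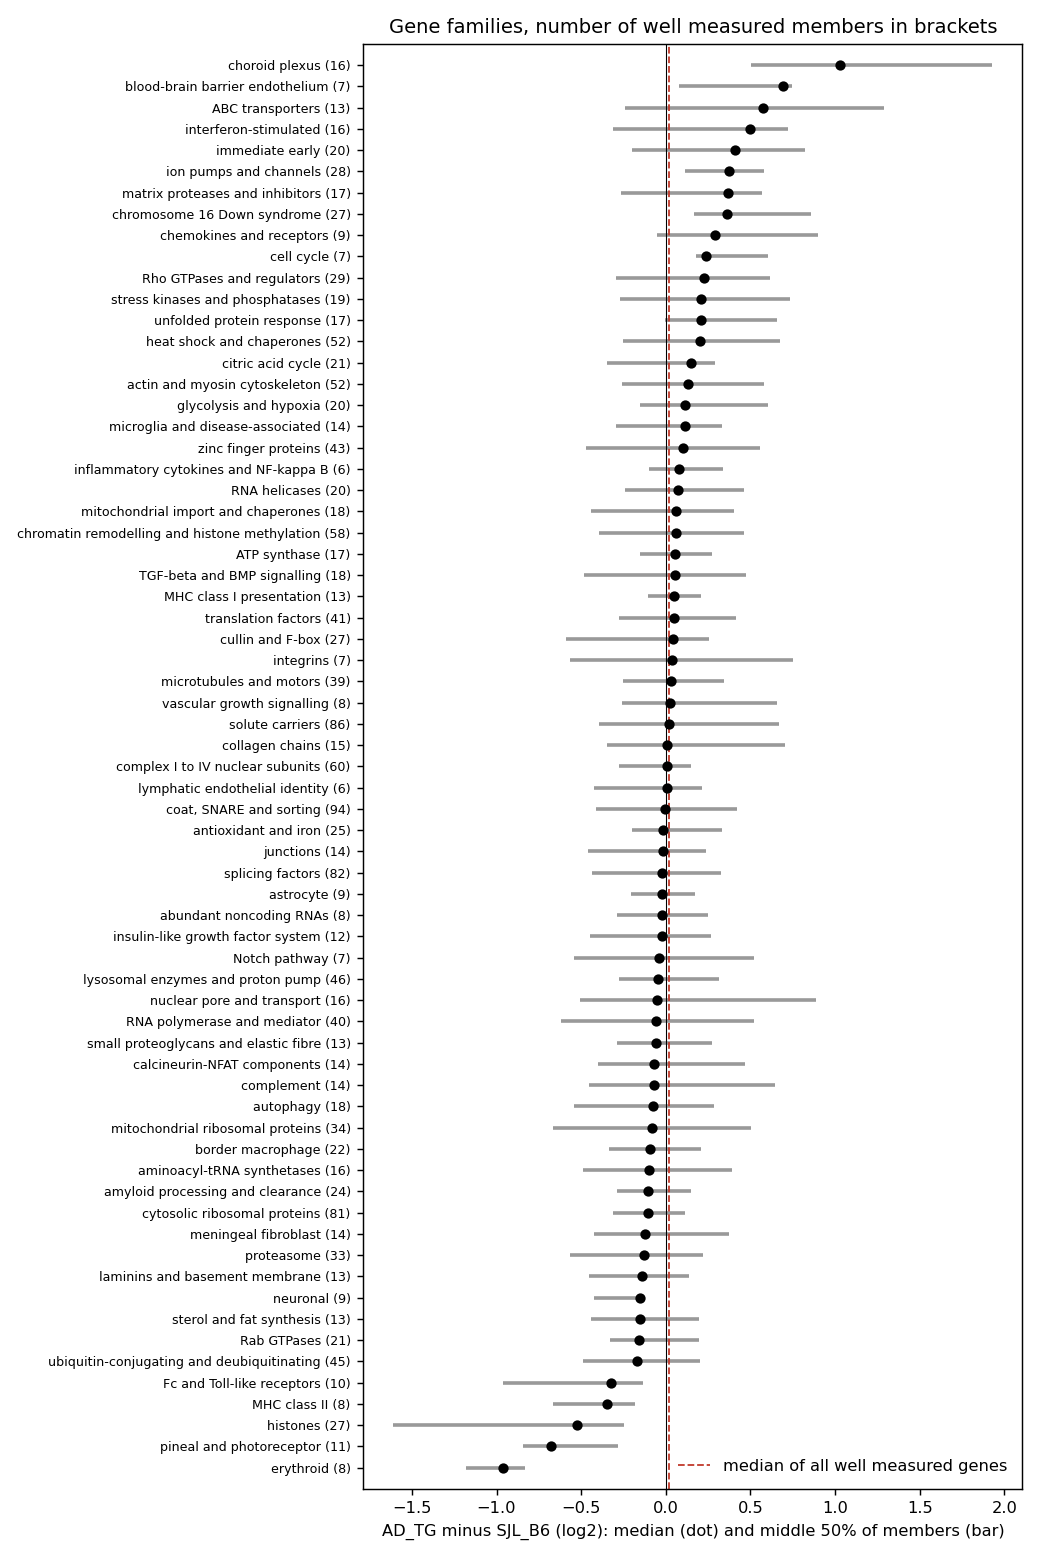
Each of the 67 families with 5 or more well measured members has a dot at the median AD_TG minus SJL_B6 difference (log2) of its members and a bar over the middle 50% of them; the number of members is in brackets and the dashed line marks the median of all well measured genes, 0.02. Choroid plexus genes stand at the top (median 1.03) and erythroid genes at the bottom (-0.96).

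Choroid plexus genes were higher in AD_TG for 16 of 16 well measured members, with a median difference of 1.03 log2 units, and 1 SJL_B6 library set most of that median. The choroid plexus is the secretory tissue of the brain ventricles that makes cerebrospinal fluid, and its epithelium was not the sorted cell type. The family mean was 12.05, 11.97, 10.65 and 11.91 in the AD_TG libraries, against 11.42, 7.08, 11.82 and 11.30 in the SJL_B6 libraries. SJL_B6 replicate 2 lay far below the other 7 libraries, and AD_TG replicate 3 lay below the rest of its group. Ttr, the thyroid hormone carrier transthyretin and the family's most abundant transcript, had 18.63, 18.69, 16.59 and 18.71 in the AD_TG libraries, against 18.51, 13.38, 18.13 and 18.38 in the SJL_B6 libraries (difference 1.05, SE 0.87). Enpp2, which encodes autotaxin, the enzyme that makes lysophosphatidic acid, had 16.86, 16.87, 14.50 and 16.83 in the AD_TG libraries, against 16.28, 11.86, 16.50 and 16.30 in the SJL_B6 libraries (difference 1.03, SE 0.86). In both genes the same pair of libraries was low and the groups overlapped.

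The members with the smallest unadjusted p showed the same library more steeply. Kl, the co-receptor klotho, had 11.72, 11.16, 10.69 and 12.15 in the AD_TG libraries, against 9.46, 1.26, 11.31 and 11.19 in the SJL_B6 libraries (difference 3.12, SE 1.39). Sostdc1, a secreted antagonist of BMP signals, had 12.03, 11.69, 9.16 and 12.20 in the AD_TG libraries, against 10.71, 1.26, 11.36 and 11.48 in the SJL_B6 libraries (difference 2.57, SE 1.58). Cldn2, the pore-forming tight junction protein claudin-2, had 9.61, 10.53, 8.87 and 10.61 in the AD_TG libraries, against 10.10, 1.93, 9.21 and 9.23 in the SJL_B6 libraries (difference 2.29, SE 1.41). Each of the 3 stood at 1.26 or 1.93 in SJL_B6 replicate 2, about 2 or 4 reads. Without SJL_B6 replicate 2, 9 of 16 members were higher in AD_TG and the median difference was 0.12. Without any other of the 8 libraries, 15 or 16 members were higher. Among the files that list small values 6 of 16 were higher (median -0.35), and among the others, which include SJL_B6 replicate 2, all 16 were (median 2.32). The AD_B6 libraries had family means of 8.63 to 12.61, so a low library occurred there too. Otx2, a homeobox factor of both choroid plexus and pineal gland, was not low in that library, with 11.06, 11.59, 10.61 and 11.59 in the AD_TG libraries, against 11.01, 11.90, 11.22 and 10.28 in the SJL_B6 libraries (difference 0.11, SE 0.41).

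**Figure D3:**
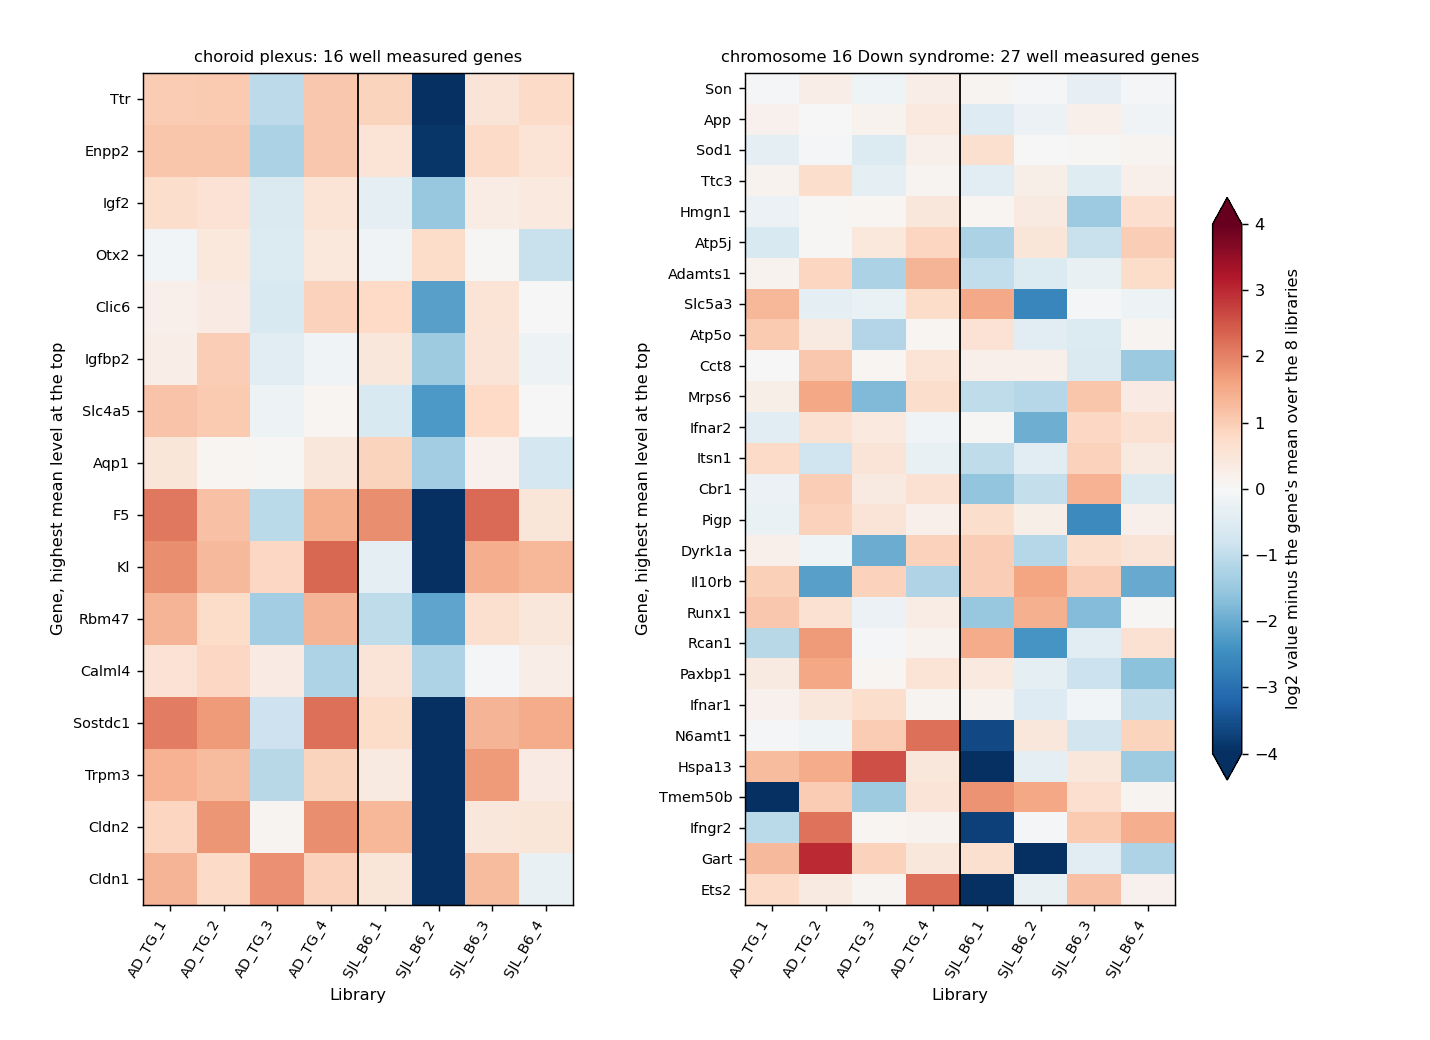
Each row is a well measured gene and each column a library, AD_TG to the left of the line and SJL_B6 to the right; colour gives the log2 value minus the gene's mean over the 8 libraries, with the scale ending at 4 log2 units either way. The SJL_B6_2 column is blue for 15 of the 16 choroid plexus genes, whereas the 27 chromosome 16 genes show single low cells spread over several libraries.

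Ion pumps and channels were higher in AD_TG for 22 of 28 well measured members (median 0.37), of 193 listed, against 51.2% of all genes. The family mean was 9.99, 10.36, 9.80 and 10.03 in the AD_TG libraries, against 9.70, 9.33, 10.23 and 9.70 in the SJL_B6 libraries, and the groups overlapped. SJL_B6 replicate 2, the library low in choroid plexus genes, was again the lowest, and without it 17 of 28 were higher with a median of 0.19. Among the files that list small values 12 of 28 were higher (median -0.39). The part of the choroid plexus RNA in the pump values was not tested. Atp1b1, the beta subunit of the sodium-potassium pump, had 13.64, 12.65, 12.52 and 13.29 in the AD_TG libraries, against 12.99, 11.46, 13.24 and 12.66 in the SJL_B6 libraries (difference 0.44, SE 0.39). For Atp2a2, the calcium pump SERCA2 of the endoplasmic reticulum, the values were 12.43, 12.59, 12.87 and 12.36 in the AD_TG libraries, against 12.42, 11.49, 12.07 and 12.05 in the SJL_B6 libraries (difference 0.55, SE 0.32). The groups overlapped in both genes, and SJL_B6 replicate 2 was the lowest of the 8 libraries in each. Atp2b1, a calcium pump of the cell surface, was the 1 member of the list whose groups did not overlap, with 11.24, 10.99, 11.56 and 11.06 in the AD_TG libraries, against 9.99, 10.65, 10.89 and 10.67 in the SJL_B6 libraries (difference 0.66, SE 0.43). Atp1b2, a glial beta subunit of the sodium-potassium pump, differed by -0.50 (SE 0.43).

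Genes of the blood-brain barrier endothelium list were higher in AD_TG for 5 of 7 members (median 0.70), and without SJL_B6 replicate 2 for 4 of 7 (median 0.30). The 2 lower members were Slc7a5 and Itm2a. Slc2a1, the glucose transporter GLUT1, had 10.32, 10.63, 10.52 and 10.20 in the AD_TG libraries, against 10.05, 9.72, 9.59 and 9.37 in the SJL_B6 libraries (difference 0.73, SE 0.68), and its groups did not overlap. Bsg, the surface protein basigin, had 12.45, 12.19, 11.40 and 12.29 in the AD_TG libraries, against 11.22, 10.81, 11.07 and 12.45 in the SJL_B6 libraries (difference 0.69, SE 0.38). Its single high SJL_B6 library was replicate 4. Among ABC transporters, which move lipids and drugs across membranes, 9 of 13 were higher (median 0.58). That median was 0.21 without SJL_B6 replicate 4, 0.28 without AD_TG replicate 2 and 0.33 without SJL_B6 replicate 2. Abca1, the cholesterol exporter that loads apolipoproteins with lipid, had 10.96, 10.44, 10.86 and 10.29 in the AD_TG libraries, against 8.23, 9.41, 9.67 and 10.07 in the SJL_B6 libraries (difference 1.29, SE 0.71), with no overlap. Abce1, a ribosome recycling factor of the same protein family, had 7.43, 9.15, 7.88 and 8.38 in the AD_TG libraries, against 1.76, 7.30, 9.06 and 5.85 in the SJL_B6 libraries (difference 2.22, SE 1.27), with SJL_B6 replicate 1 far below the other libraries.

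Genes of the Down syndrome segment of mouse chromosome 16 were higher in AD_TG for 23 of 27 well measured members, of 64 listed, with a median difference of 0.36. The family mean was 9.20, 9.76, 9.15 and 9.64 in the AD_TG libraries, against 8.63, 8.73, 9.09 and 9.10 in the SJL_B6 libraries. All 4 AD_TG means lay above all 4 SJL_B6 means, while the AD_B6 means ran from 8.51 to 9.53 and overlapped both. Leaving out any 1 AD_TG or SJL_B6 library left 19 to 23 of 27 members higher, and the median ran from 0.30 to 0.60 over the 12 libraries left out in turn. The difference was spread unevenly over the members, and 1 of the 27 reached an unadjusted p below 0.05. Hspa13, a microsomal protein of the Hsp70 family, had 8.50, 8.71, 9.79 and 7.67 in the AD_TG libraries, against 2.80, 6.85, 7.67 and 5.79 in the SJL_B6 libraries (difference 2.89, SE 1.19). Gart, an enzyme of purine synthesis, had 7.87, 9.56, 7.48 and 7.02 in the AD_TG libraries, against 7.20, 1.93, 6.16 and 5.32 in the SJL_B6 libraries (difference 2.83, SE 1.55), with SJL_B6 replicate 2 at about 4 reads. The most abundant members differed little. Son, an RNA-binding splicing protein and the most abundant member, had 13.25, 13.57, 13.13 and 13.56 in the AD_TG libraries, against 13.41, 13.23, 12.96 and 13.23 in the SJL_B6 libraries (difference 0.17, SE 0.25). The 4 members that were lower in AD_TG were Dyrk1a, Il10rb, Tmem50b and Sod1. Sod1, the copper-zinc superoxide dismutase, had 11.33, 11.67, 11.17 and 11.93 in the AD_TG libraries, against 12.37, 11.76, 11.79 and 11.83 in the SJL_B6 libraries (difference -0.41, SE 0.35).

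Rcan1, the gene of the series title, had 6.47, 9.28, 7.54 and 7.70 in the AD_TG libraries, against 9.05, 5.21, 7.17 and 8.18 in the SJL_B6 libraries (difference 0.35, SE 1.04, 95% interval -1.79 to 2.49). The groups overlapped, with the highest value in AD_TG replicate 2 and the lowest in SJL_B6 replicate 2. The difference was -0.16 without AD_TG replicate 2 and -0.38 without SJL_B6 replicate 2. The AD_B6 libraries had 8.74, 9.55, 9.54 and 7.34. Calcineurin and its partners split evenly, 7 of 14 higher in AD_TG (median -0.07). Calm2, a gene of the calcium sensor calmodulin, had 11.59, 11.50, 11.56 and 11.99 in the AD_TG libraries, against 10.61, 9.76, 11.07 and 11.48 in the SJL_B6 libraries (difference 0.93, SE 0.41), and the groups did not overlap. Ppp3ca, which encodes calcineurin's catalytic subunit, had a difference of 0.71 (SE 0.50), and Ppp3r1, its regulatory subunit, of -0.44 (SE 0.44). Akap5, a scaffold that anchors calcineurin, had 12.65, 12.84, 11.40 and 12.81 in the AD_TG libraries, against 13.10, 12.98, 13.15 and 12.98 in the SJL_B6 libraries (difference -0.62, SE 0.37). Its AD_TG values all lay below the SJL_B6 values, and AD_TG replicate 3 was the lowest.

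App, the amyloid precursor protein, had 12.99, 12.85, 12.98 and 13.21 in the AD_TG libraries, against 12.33, 12.58, 13.02 and 12.69 in the SJL_B6 libraries (difference 0.35, SE 0.24, 95% interval -0.14 to 0.84). Replicate 3 was the single SJL_B6 library within the AD_TG range, and the other 3 lay below that range. The wider list of amyloid processing and clearance genes was higher for 10 of 24 members and lower for 14 (median -0.11), but higher for 14 of 24 in the files that list small values (median 0.065). Cst3, the protease inhibitor cystatin C, had 13.47, 13.54, 13.87 and 14.15 in the AD_TG libraries, against 12.96, 13.95, 13.28 and 13.63 in the SJL_B6 libraries (difference 0.31, SE 0.30). Bin1, a membrane-bending adaptor, had 8.99, 8.86, 8.80 and 10.05 in the AD_TG libraries, against 10.16, 10.94, 9.79 and 9.89 in the SJL_B6 libraries (difference -1.02, SE 0.66). Both genes overlapped between the groups, through SJL_B6 replicates 2 and 4 in Cst3 and AD_TG replicate 4 in Bin1. Apbb1, an adaptor that binds the tail of the precursor protein, differed by -1.18 (SE 0.90), and Aplp1, a relative of the precursor, by -0.75 (SE 0.60).

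Vessel genes gave few well measured members. In the lymphatic list these were 6 of 20, 3 higher and 3 lower in AD_TG (median 0.01). That median ran from -0.23 without AD_TG replicate 1 to 0.18 without AD_TG replicate 3. Pdpn, podoplanin, had 9.65, 9.37, 8.28 and 8.74 in the AD_TG libraries, against 10.62, 10.33, 7.85 and 9.26 in the SJL_B6 libraries (difference -0.51, SE 0.69). Foxc2, a transcription factor of lymphatic valves, had 8.60, 8.05, 9.41 and 7.96 in the AD_TG libraries, against 9.76, 9.22, 8.71 and 10.15 in the SJL_B6 libraries (difference -0.95, SE 1.001). Maf, a transcription factor also made by macrophages, had 12.05, 10.47, 10.54 and 10.04 in the AD_TG libraries, against 9.90, 10.66, 10.98 and 10.66 in the SJL_B6 libraries (difference 0.22, SE 0.47), and the highest value stood in AD_TG replicate 1. All 3 genes overlapped between the groups. Lyve1, which border macrophages also express, was not among the well measured genes because 1 AD_B6 library had no reads. Its reads were present in all 8 libraries compared, with 8.0, 8.45, 8.84 and 7.47 in the AD_TG libraries, against 8.90, 10.39, 7.79 and 8.47 in the SJL_B6 libraries (difference -0.70, SE 1.45). Flt4 had 7.16, 7.91, 0.00 and 5.27 in the AD_TG libraries, against 8.82, 0.00, 7.69 and 0.00 in the SJL_B6 libraries, so 1 AD_TG and 2 SJL_B6 libraries had no reads, and its difference of 0.96 (SE 2.68) became -0.42 without SJL_B6 replicate 2 or 4. Of the pan-endothelial list, the 3 well measured genes Ramp2, Kdr and Eng were lower in AD_TG by 0.51, 0.57 and 1.01 (SE 0.91, 0.84 and 1.47). Pecam1, the junction protein CD31, had reads in 2 of 4 AD_TG and 3 of 4 SJL_B6 libraries. Among growth signals of vessels 4 of 8 members were higher. Pdgfb, the platelet-derived growth factor that recruits mural cells, had 7.50, 8.68, 5.53 and 7.39 in the AD_TG libraries, against 2.80, 6.997, 1.47 and 3.11 in the SJL_B6 libraries (difference 3.68, SE 1.80), and the highest SJL_B6 library, replicate 2, lay within the AD_TG range.

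Most protein-folding genes were higher in AD_TG, by small amounts. Chaperones bind unfolded proteins; those of the cytosol are induced by heat shock factors, and those of the endoplasmic reticulum by the unfolded protein response. Both inducing systems act through short promoter sites, and 6 members with matching letters are shown with the match in capitals. The stretches run 5' to 3' on the gene's strand and come from RefSeq on build GRCm38.p6, within the 250 bases before the gene's start. The endoplasmic reticulum stress element, taken as CCAAT, any 9 bases and CCACG, was searched on both strands and was found in 7 of the 14 unfolded protein response genes with a promoter in the table (50%), against 0.13% of the promoters of all 27025 genes. For the heat shock element only the letters GAANNTTC, which read the same on both strands, were searched. They were found in 7 of 40 chaperone genes (17.5%), against 7.73% of all promoters. No match of a motif overlapped a match of another motif in the promoters of well measured genes. A match describes the letters only.
Hspa5, chr2:34771995-34772074, plus strand: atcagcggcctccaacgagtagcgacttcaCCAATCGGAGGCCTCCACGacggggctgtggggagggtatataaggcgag
Hsp90b1, chr10:86705502-86705581, minus strand: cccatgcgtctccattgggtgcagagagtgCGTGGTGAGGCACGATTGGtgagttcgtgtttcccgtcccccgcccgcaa
Calr, chr8:84847044-84847123, minus strand: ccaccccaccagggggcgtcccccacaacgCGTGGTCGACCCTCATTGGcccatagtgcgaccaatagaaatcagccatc
Dnajc3, chr14:118937797-118937876, plus strand: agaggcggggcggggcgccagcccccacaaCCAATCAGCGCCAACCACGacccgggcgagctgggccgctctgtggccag
Pdia6, chr12:17266461-17266540, plus strand: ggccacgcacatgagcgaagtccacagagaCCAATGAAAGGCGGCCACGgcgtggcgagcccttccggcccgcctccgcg
Dnaja1, chr4:40722314-40722393, plus strand: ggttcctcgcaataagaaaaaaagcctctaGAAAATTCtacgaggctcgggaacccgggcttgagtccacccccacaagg
The first 5 stretches hold a match of the endoplasmic reticulum element, in Hsp90b1 and Calr on the opposite strand, and the stretch of Dnaja1 holds a match of GAANNTTC.

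In the unfolded protein response list 12 of 17 members were higher in AD_TG (median 0.21; 0.19 to 0.36 with 1 library left out), and 0 reached an unadjusted p below 0.05. Hspa5, the chaperone BiP, had 13.79, 13.78, 13.16 and 13.39 in the AD_TG libraries, against 14.05, 13.01, 13.43 and 12.67 in the SJL_B6 libraries (difference 0.24, SE 0.31). Hsp90b1, its Hsp90 partner in the same compartment, had 11.97, 11.52, 12.25 and 12.49 in the AD_TG libraries, against 11.50, 11.12, 11.94 and 11.75 in the SJL_B6 libraries (difference 0.48, SE 0.39). For Dnajc3, an inhibitor of the stress kinase PERK, the values were 11.36, 10.92, 10.83 and 11.57 in the AD_TG libraries, against 10.10, 10.69, 11.56 and 9.70 in the SJL_B6 libraries (difference 0.66, SE 0.45). Calr, the calcium-binding chaperone calreticulin, differed by 0.21 (SE 0.31). Pdia6, a disulphide isomerase chosen for its promoter after the values were seen, averaged 10.31 ± 0.31 in AD_TG and 10.31 ± 0.42 in SJL_B6 (SD, n = 4 each). The groups overlapped for all 5 of the genes shown with the element. Hyou1, an Hsp110-type chaperone of this compartment, had 9.63, 8.93, 9.01 and 9.10 in the AD_TG libraries, against 7.97, 6.43, 8.46 and 8.54 in the SJL_B6 libraries (difference 1.32, SE 0.79), and its groups did not overlap. Ddit3, the stress factor CHOP, lay on the other side with 5.43, 7.81, 8.53 and 7.10 in the AD_TG libraries, against 10.07, 8.34, 8.03 and 7.71 in the SJL_B6 libraries (difference -1.32, SE 1.31).

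Of all heat shock proteins and chaperones, 33 of 52 (63.5%) were higher in AD_TG, against 51.2% of all well measured genes. The median was 0.20, and 0.14 to 0.39 with 1 library left out. In the files that list small values 27 of 52 were higher (median 0.14), and in the others 38 of 52 (median 0.46). The Hsp70 group, a sublist chosen after its values were seen, had 9 of 10 higher with a median of 0.63, which was 0.41 without SJL_B6 replicate 2. Its mean was 9.83, 9.90, 10.24 and 10.36 in the AD_TG libraries, against 8.98, 8.72, 9.59 and 9.45 in the SJL_B6 libraries, with no overlap, and 8.90 to 10.20 in AD_B6. Hspa1b, the heat-inducible Hsp70, had 9.07, 9.76, 9.35 and 10.23 in the AD_TG libraries, against 8.82, 8.33, 8.15 and 7.92 in the SJL_B6 libraries (difference 1.30, SE 0.70). The groups of Hspa1b did not overlap. Dnaja1, an Hsp40 co-chaperone that delivers clients to Hsp70, had 10.50, 11.32, 10.64 and 11.18 in the AD_TG libraries, against 6.75, 9.48, 9.24 and 10.56 in the SJL_B6 libraries (difference 1.90, SE 0.64). The highest SJL_B6 value passed the lowest AD_TG value, and SJL_B6 replicate 1 lay apart below. Hsp90ab1, the most abundant cytosolic chaperone here, had 13.41, 14.48, 13.44 and 14.22 in the AD_TG libraries, against 13.79, 13.63, 13.45 and 13.73 in the SJL_B6 libraries (difference 0.24, SE 0.25). Among the other chaperone sublists, also chosen after the values were seen, Hsp90 chaperones had 3 of 3 higher (median 0.48), Hsp40 proteins 10 of 17 (median 0.02) and the TRiC chaperonin 4 of 7 (median 0.01). Pfdn5, a prefoldin subunit, and St13, an Hsp70 cofactor, differed by -1.14 (SE 0.66) and -0.59 (SE 0.55).

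**Figure D4:**
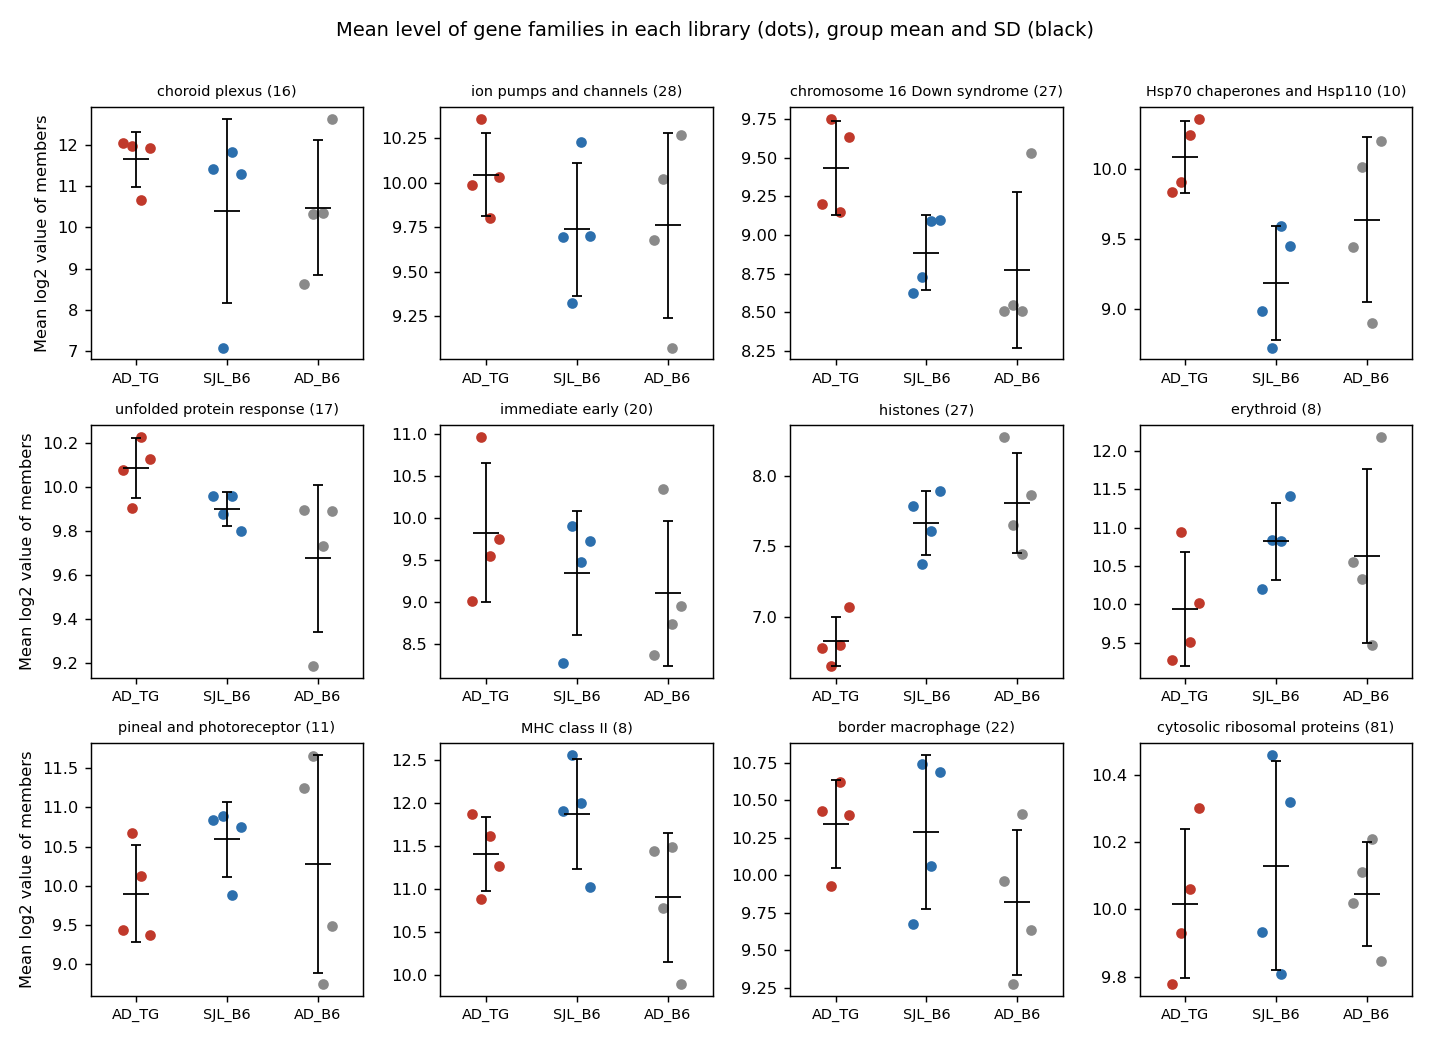
Each panel gives the mean deposited log2 value of a family's well measured members (number in brackets) in each library, with AD_TG in red, SJL_B6 in blue and AD_B6 in grey; black marks show the group mean and SD (n = 4). AD_TG and SJL_B6 dots do not overlap in the panels of the chromosome 16, Hsp70 and histone genes, and 1 SJL_B6 dot lies at 7.08 in the choroid plexus panel. The Hsp70 panel is a sublist chosen after its values were seen, and it shares Hspa13 with the chromosome 16 panel.

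Histones stood on the other side, with 21 of 27 members lower in AD_TG and a median difference of -0.53 (-0.98 without AD_TG replicate 3 and -0.80 without SJL_B6 replicate 2). The mean over the members was 6.78, 6.65, 6.80 and 7.07 in the AD_TG libraries, against 7.79, 7.37, 7.61 and 7.90 in the SJL_B6 libraries, with no overlap. The range in AD_B6 was 7.44 to 8.28, also above every AD_TG library. The lower members were above all the replication-dependent H2A genes, which sit in clusters of near-identical copies and package newly made DNA. All 15 well measured genes of that sublist, chosen after the values were seen, were lower in AD_TG (median -1.60), whereas the other histones split 6 to 6 (median -0.09). The sublist lay at low levels, with means of 4.70 to 5.49 in the AD_TG libraries and 5.87 to 6.58 in the SJL_B6 libraries. How fully 3' libraries capture the transcripts of these genes was not tested, so the values may not measure their whole RNA. The median over all well measured genes was 9.02 to 9.11 in these libraries. Cell cycle genes were higher in AD_TG for 7 of 7 members (median 0.24), but for 3 of 7 in the files that list small values (median -0.24). In the other files 6 of 7 were higher (median 0.94). Whether DNA replication differed between the groups was not tested. Hist1h2ai had 3.73, 3.66, 2.62 and 4.18 in the AD_TG libraries, against 5.41, 6.70, 5.62 and 5.85 in the SJL_B6 libraries (difference -2.35, SE 2.06), and its groups did not overlap. AD_TG replicate 3 was the lowest. The copies can share reads, so the 15 genes are not 15 independent values, and Hist2h2aa1 and Hist2h2aa2 carried identical values in every library. These more abundant copies had 9.77, 10.55, 10.35 and 10.64 in the AD_TG libraries, against 11.41, 11.03, 9.71 and 10.19 in the SJL_B6 libraries (difference -0.26, SE 0.47) and overlapped. H3f3b, a replication-independent H3 and the most abundant histone gene, had 11.26, 11.41, 12.69 and 11.90 in the AD_TG libraries, against 11.41, 12.11, 10.93 and 11.89 in the SJL_B6 libraries (difference 0.23, SE 0.35). H1f0, the linker histone of resting cells, had 7.57, 7.48, 8.32 and 8.52 in the AD_TG libraries, against 8.78, 9.02, 8.55 and 8.998 in the SJL_B6 libraries (difference -0.86, SE 0.71), with no overlap.

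Cytosolic ribosomal protein genes were lower in AD_TG for 56 of 81 members, with a median of -0.11. The family mean was 9.78, 9.93, 10.06 and 10.30 in the AD_TG libraries, against 9.93, 10.46, 9.81 and 10.32 in the SJL_B6 libraries, and the groups overlapped. With 1 library left out the median ran from -0.22 to -0.04. Among the files that list small values above 0, 42 of 81 genes were higher (median 0.04), and among the others 16 were (median -0.29). Rplp1, a protein of the ribosomal stalk, had 13.50, 12.04, 12.60 and 12.36 in the AD_TG libraries, against 13.37, 13.68, 12.60 and 13.07 in the SJL_B6 libraries (difference -0.55, SE 0.30). Rpl34, of the large subunit, had 10.89, 10.06, 10.41 and 10.81 in the AD_TG libraries, against 11.83, 10.83, 11.004 and 11.40 in the SJL_B6 libraries (difference -0.73, SE 0.39), and Rps21, of the small subunit, differed by 0.37 (SE 0.41). The groups overlapped in Rplp1 and in Rpl34. Mitochondrial ribosomal proteins had 15 of 34 higher (median -0.08; -0.34 in the files that list small values and 0.15 in the others); Mrpl10, of their large subunit, had 8.45, 8.92, 8.31 and 8.79 in the AD_TG libraries, against 5.86, 8.11, 6.26 and 1.43 in the SJL_B6 libraries (difference 3.20, SE 1.37), without overlap. Translation factors had 22 of 41 higher (median 0.05), with -0.18 in the files that list small values and 0.18 in the others. Kars, which charges the lysine tRNA, had 9.57, 9.50, 8.95 and 9.92 in the AD_TG libraries, against 7.98, 7.82, 9.14 and 7.28 in the SJL_B6 libraries (difference 1.43, SE 0.68) in a synthetase list that split 8 to 8.

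The largest housekeeping families showed medians near 0. Nuclear subunits of respiratory complexes I to IV split 30 to 30 (median 0.01) and splicing factors 39 to 43 (median -0.02). Cox8a, a subunit of cytochrome oxidase, had 13.35, 13.35, 13.30 and 13.70 in the AD_TG libraries, against 13.43, 13.08, 12.67 and 13.62 in the SJL_B6 libraries (difference 0.22, SE 0.24). Celf1, a regulator of splicing and mRNA decay, had 11.78, 11.77, 11.55 and 10.33 in the AD_TG libraries, against 9.73, 10.36, 10.86 and 10.35 in the SJL_B6 libraries (difference 1.03, SE 0.50). Hnrnpdl, another RNA-binding protein, had 8.85, 8.37, 10.68 and 9.94 in the AD_TG libraries, against 11.19, 11.50, 9.84 and 10.47 in the SJL_B6 libraries (difference -1.29, SE 0.56). These genes overlapped between the groups. ATP synthase had 10 of 17 higher (median 0.06), the citric acid cycle 14 of 21 (median 0.15, but -0.13 without AD_TG replicate 2 and -0.11 without SJL_B6 replicate 2) and glycolysis and hypoxia genes 12 of 20 (median 0.11, but -0.05 and 9 of 20 without SJL_B6 replicate 2). In the files that list small values, citric acid cycle genes were higher for 6 of 21 (median -0.48), and in the others for 15 of 21 (median 0.35). Bnip3, a hypoxia-induced protein of mitochondrial clearance, had 9.07, 8.47, 8.04 and 8.07 in the AD_TG libraries, against 2.53, 7.64, 7.04 and 5.52 in the SJL_B6 libraries (difference 2.73, SE 1.26) without overlap. Proteasome genes were lower for 19 of 33 members (median -0.13; -0.34 in the files that list small values, 0.09 in the others and 0.01 without AD_TG replicate 3) and ubiquitin enzymes for 29 of 45 (median -0.17). Psmd7, of the proteasome lid, had 8.28, 9.16, 7.47 and 6.49 in the AD_TG libraries, against 9.84, 10.01, 8.84 and 10.40 in the SJL_B6 libraries (difference -1.92, SE 0.78), and the highest AD_TG value passed the lowest SJL_B6 value.

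Among immune genes the directions differed by list and by kind of file. MHC class II molecules present peptides to helper T cells, and 7 of 8 genes of that list were lower in AD_TG (median -0.35; -0.09 without SJL_B6 replicate 2). H2-Ab1, a class II chain, had 12.75, 12.07, 12.66 and 12.47 in the AD_TG libraries, against 12.47, 13.88, 13.10 and 12.75 in the SJL_B6 libraries (difference -0.56, SE 0.30). Cd74, the invariant chain, had 12.78, 13.01, 12.88 and 12.63 in the AD_TG libraries, against 13.20, 14.04, 13.59 and 12.21 in the SJL_B6 libraries (difference -0.43, SE 0.31). SJL_B6 replicate 2 was the highest library in both genes and the groups overlapped. Fc and Toll-like receptor genes were lower for 8 of 10 (median -0.32; 0.03 without SJL_B6 replicate 1), among them Irak4, a kinase downstream of Toll-like receptors, with 7.79, 5.17, 5.87 and 6.58 in the AD_TG libraries, against 7.75, 8.24, 7.80 and 8.78 in the SJL_B6 libraries (difference -1.79, SE 1.22). Border macrophage genes split 10 to 12 (median -0.09). Within the files that list small values 16 of 22 were higher and within the other files 2 were. With 2 AD_TG and 2 SJL_B6 libraries of each kind, the kind of file cannot be told apart from differences between libraries. Csf1r, the growth factor receptor of macrophages, had 12.41, 12.35, 12.29 and 12.49 in the AD_TG libraries, against 13.24, 13.10, 12.68 and 12.50 in the SJL_B6 libraries (difference -0.50, SE 0.28), and all AD_TG values lay below the SJL_B6 values, in replicate 4 by a narrow margin. Serping1, the complement C1 inhibitor, had 10.02, 9.31, 11.34 and 9.83 in the AD_TG libraries, against 11.20, 11.24, 11.75 and 10.66 in the SJL_B6 libraries (difference -1.09, SE 0.53) in a complement list that split 6 to 8. In the files that list small values, 10 of these 14 complement genes were higher (median 0.34), and in the others 4 of 14 (median -0.68). MHC class I presentation genes had 8 of 13 higher (median 0.05; -0.24 to 0.21 with 1 library left out). Of these, 11 were higher in the files that list small values (median 0.44) and 3 in the others (median -0.60). The T and NK cell list and the mast cell list had 0 well measured genes.

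Interferon-stimulated genes are known to be switched on through a promoter site whose core can be written GAAA, any 2 bases and GAAA. It was found on either strand in 6 of 14 well measured members with a promoter in the table (42.9%), against 3.46% of all promoters, and 2 of them with differences of opposite sign are shown, Bst2 having been chosen after its values were seen.
Ifit3, chr19:34583377-34583456, plus strand: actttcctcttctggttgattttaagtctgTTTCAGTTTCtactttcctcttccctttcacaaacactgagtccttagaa
Bst2, chr8:71537547-71537626, minus strand: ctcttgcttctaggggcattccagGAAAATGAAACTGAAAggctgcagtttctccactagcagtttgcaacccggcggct
Ifit3, an antiviral protein that binds foreign RNA, had 9.01, 8.82, 8.50 and 9.21 in the AD_TG libraries, against 8.64, 6.37, 6.90 and 10.03 in the SJL_B6 libraries (difference 0.90, SE 0.86). SJL_B6 replicates 2 and 3 were the low libraries and replicate 4 the highest. Bst2, the virus-tethering protein tetherin, whose stretch holds 2 overlapping copies of the core, had 10.17, 9.88, 8.83 and 9.20 in the AD_TG libraries, against 10.22, 10.31, 9.10 and 9.44 in the SJL_B6 libraries (difference -0.25, SE 0.83). Of the whole list 9 of 16 members were higher in AD_TG (median 0.50), and the median was 0.01 to 0.59 with 1 of the 8 libraries left out, the lowest without SJL_B6 replicate 3. In the files that list small values 11 of 16 were higher (median 0.49), and in the others 7 of 16 (median -0.22). Ifitm3, an abundant antiviral membrane protein, had 11.52, 11.42, 11.77 and 11.68 in the AD_TG libraries, against 12.78, 11.99, 11.88 and 11.59 in the SJL_B6 libraries (difference -0.46, SE 0.36). Ifitm2, a close relative, had 8.60, 8.90, 8.57 and 9.17 in the AD_TG libraries, against 10.28, 9.63, 9.18 and 9.70 in the SJL_B6 libraries (difference -0.89, SE 0.69), with AD_TG below and no overlap. The reads of such relatives may be shared. Oasl2, an interferon-induced protein, had 7.68, 8.16, 8.35 and 8.28 in the AD_TG libraries, against 2.19, 8.20, 9.23 and 5.62 in the SJL_B6 libraries (difference 1.81, SE 1.27), with SJL_B6 replicate 1 the lowest library by far.

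Immediate early genes, which cells switch on within minutes of a stimulus or of handling, were higher in AD_TG for 13 of 20 members (median 0.41). Without AD_TG replicate 2 the count was 9 of 20 (median -0.03), and without SJL_B6 replicate 1 it was 11 of 20 (median 0.06). The family mean was 9.01, 10.97, 9.55 and 9.76 in the AD_TG libraries, against 8.28, 9.91, 9.47 and 9.73 in the SJL_B6 libraries. AD_TG replicate 2 was high and SJL_B6 replicate 1 low, and the other libraries overlapped. Dusp1, a phosphatase that switches off MAP kinases, had 10.32, 11.66, 10.07 and 10.14 in the AD_TG libraries, against 7.37, 10.88, 8.48 and 8.82 in the SJL_B6 libraries (difference 1.66, SE 0.77). SJL_B6 replicate 2 was the single library of its group within the AD_TG range. Klf6, a zinc finger factor, had 10.76, 11.03, 10.68 and 10.98 in the AD_TG libraries, against 9.01, 9.61, 10.43 and 10.43 in the SJL_B6 libraries (difference 0.995, SE 0.65), without overlap. Jund, a subunit of AP-1, differed by -0.47 (SE 0.36). Among stress kinases 11 of 19 were higher. Mapk3, the MAP kinase ERK1, had 10.15, 10.80, 10.48 and 10.90 in the AD_TG libraries, against 12.27, 12.16, 11.27 and 11.08 in the SJL_B6 libraries (difference -1.12, SE 0.41) without overlap.

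Most genes of red cells and of the pineal gland, neither of them the sorted cells, were lower in AD_TG. Haemoglobin and other red cell genes were lower for 7 of 8 members (median -0.96; -1.48 to -0.65 with 1 library left out), and the 13 genes of the list that are in the files took 0.113 to 0.52% of the linear total in AD_TG and 0.248 to 0.453% in SJL_B6. Hba-a1, an alpha chain, had 11.84, 13.98, 11.65 and 11.99 in the AD_TG libraries, against 13.21, 13.36, 13.43 and 13.41 in the SJL_B6 libraries (difference -0.98, SE 0.49). AD_TG replicate 2 was the highest of all 8 libraries, and the other AD_TG libraries lay below every SJL_B6 library. The 6 haemoglobin chains can share reads and count as few independent values. Pineal and photoreceptor genes were lower for 9 of 11 (median -0.68; -0.93 to -0.37 with 1 library left out), and the list took 0.182 to 0.478% of the linear total in AD_TG and 0.231 to 0.528% in SJL_B6. Sag, the arrestin of photoreceptors and pinealocytes, had 10.01, 10.08, 10.06 and 7.68 in the AD_TG libraries, against 11.26, 10.93, 9.96 and 11.22 in the SJL_B6 libraries (difference -1.39, SE 0.63). Cngb1, a cyclic nucleotide channel subunit, had 8.19, 5.47, 8.26 and 7.45 in the AD_TG libraries, against 10.08, 9.89, 8.46 and 9.55 in the SJL_B6 libraries (difference -2.15, SE 1.07), without overlap. Sag overlapped, through AD_TG values just above SJL_B6 replicate 3. Tph1, which starts serotonin and melatonin synthesis, had 11.99, 13.52, 12.71 and 11.17 in the AD_TG libraries, against 12.51, 13.39, 12.04 and 12.43 in the SJL_B6 libraries (difference -0.25, SE 0.55), and this most abundant transcript of the list overlapped between the groups. The part of red cell or pineal RNA in other families was not tested. Neuronal genes were lower for 7 of 9 (median -0.15), but 5 of 9 were higher without AD_TG replicate 4 (median 0.02), and without AD_TG replicate 2 the median was -0.52.

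The fibroblasts of the meninges make collagen and prostaglandin D synthase, a major protein of the cerebrospinal fluid. Their genes were lower for 9 of 14 members (median -0.12; 0.17 without AD_TG replicate 2 and 0.05 without SJL_B6 replicate 2), and collagen chains split 8 to 7 (median 0.01). In the files that list small values, fibroblast genes were higher for 10 of 14 (median 0.31) and collagen chains for 10 of 15 (median 0.30). In the others fibroblast genes were higher for 1 of 14 (median -0.42) and collagen chains for 7 of 15 (median -0.22). Ptgds, the synthase, had 13.09, 12.74, 12.25 and 13.54 in the AD_TG libraries, against 14.59, 13.60, 13.65 and 13.24 in the SJL_B6 libraries (difference -0.86, SE 0.34), and AD_TG replicate 4 lay within the SJL_B6 range. Col1a2, a chain of type I collagen, had 13.33, 11.98, 14.15 and 13.49 in the AD_TG libraries, against 12.55, 14.14, 13.71 and 13.15 in the SJL_B6 libraries (difference -0.15, SE 0.41). Mgp, the calcification inhibitor matrix Gla protein, had 12.96, 12.27, 14.32 and 13.49 in the AD_TG libraries, against 14.05, 13.80, 13.27 and 13.75 in the SJL_B6 libraries (difference -0.46, SE 0.38). AD_TG replicate 2 was the lowest library in Col1a2 and Mgp and AD_TG replicate 3 the highest. Matrix proteases and their inhibitors were higher for 10 of 17 members (median 0.37). Without SJL_B6 replicate 1 that median was 0.07, and without AD_TG replicate 4 it was 0.18. Timp3, a metalloprotease inhibitor, had 12.46, 12.82, 12.51 and 13.49 in the AD_TG libraries, against 12.46, 11.96, 12.68 and 12.49 in the SJL_B6 libraries (difference 0.43, SE 0.28). Serpine2, an inhibitor of thrombin and urokinase, had 10, 5.997, 9.41 and 10.27 in the AD_TG libraries, against 3.22, 4.84, 7.99 and 6.11 in the SJL_B6 libraries (difference 3.38, SE 1.23).

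Actin and myosin genes, the contractile and shape-giving fibres of the cell, were higher in AD_TG for 31 of 52 members (median 0.13). The family mean was 9.82, 9.90, 9.95 and 9.95 in the AD_TG libraries, against 9.70, 9.63, 9.62 and 9.73 in the SJL_B6 libraries. The groups did not overlap, and the AD_B6 means ran from 9.40 to 9.77. Leaving out any 1 of the 8 libraries left 30 to 32 members higher. Actb, beta-actin, had 14.54, 14.65, 14.83 and 14.82 in the AD_TG libraries, against 14.69, 14.63, 14.45 and 14.68 in the SJL_B6 libraries (difference 0.10, SE 0.17). Cap1, an actin-recycling protein, had 9.56, 10.17, 9.99 and 8.17 in the AD_TG libraries, against 6.49, 7.60, 8.35 and 7.83 in the SJL_B6 libraries (difference 1.90, SE 0.73), and both genes overlapped between the groups. Actn1, the cross-linker alpha-actinin 1, differed by -0.39 (SE 0.31). Coat, SNARE and sorting genes of vesicle traffic split 47 to 47 (median -0.01), and solute carriers, a separate list of membrane transporters, 44 to 42 (median 0.02). Rab GTPases were lower in AD_TG for 12 of 21 members (median -0.16). Their median was 0.08 in the files that list small values and -0.16 in the others. Rab7, the GTPase of late endosomes, had 9.58, 10.59, 10.46 and 10.27 in the AD_TG libraries, against 11.38, 11.28, 10.98 and 11.26 in the SJL_B6 libraries (difference -0.996, SE 0.42), with no overlap. Lysosomal genes split 22 to 24 (median -0.05); Atp6v1a, a subunit of the proton pump that acidifies lysosomes, had 10.62, 12.37, 11.44 and 11.88 in the AD_TG libraries, against 10.93, 11.09, 11.13 and 10.83 in the SJL_B6 libraries (difference 0.58, SE 0.41) and overlapped.

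Single genes with the smallest unadjusted p-values on the higher side often had low SJL_B6 values. Mthfd1, an enzyme of folate metabolism, had 9.25, 9.08, 8.55 and 9.06 in the AD_TG libraries, against 1.76, 5.95, 3.27 and 8.56 in the SJL_B6 libraries (difference 4.10, SE 1.26). Mybbp1a, a nucleolar protein, had 8.12, 8.94, 8.71 and 8.62 in the AD_TG libraries, against 3.93, 4.97, 7.02 and 2.96 in the SJL_B6 libraries (difference 3.88, SE 1.30). Cript, a small protein of synapses and splicing, had 8.49, 7.65, 6.82 and 8.36 in the AD_TG libraries, against 3.02, 2.18, 3.27 and 4.94 in the SJL_B6 libraries (difference 4.48, SE 1.56). In each of these 3 genes, 2 or 3 SJL_B6 libraries had values below 4, and no AD_TG library did. Sdcbp, the scaffold syntenin-1 of exosome formation, was more even within its groups, with 11.27, 10.70, 11.03 and 11.13 in the AD_TG libraries, against 10.19, 9.40, 9.80 and 9.30 in the SJL_B6 libraries (difference 1.36, SE 0.46). Med13, of the Mediator complex of transcription, had 9.69, 10.89, 10.92 and 10.11 in the AD_TG libraries, against 7.70, 9.21, 9.48 and 7.49 in the SJL_B6 libraries (difference 1.93, SE 0.69), and Acap2, a regulator of endosomal traffic, had 9.13, 8.90, 10.53 and 8.999 in the AD_TG libraries, against 3.22, 8.17, 7.53 and 7.95 in the SJL_B6 libraries (difference 2.67, SE 0.98). The groups did not overlap for Mybbp1a, Cript, Sdcbp, Med13 and Acap2. Mid1ip1, a regulator of fatty acid synthesis, overlapped, with 10.87, 8.88, 9.12 and 9.50 in the AD_TG libraries, against 1.76, 4.87, 9.20 and 9.56 in the SJL_B6 libraries (difference 3.24, SE 1.18).

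On the lower side, Pofut2, an enzyme that adds fucose to secreted proteins, had 6.86, 6.31, 9.38 and 5.86 in the AD_TG libraries, against 9.69, 10.07, 9.84 and 9.84 in the SJL_B6 libraries (difference -2.75, SE 0.75). Hprt, the purine salvage enzyme, had 4.34, 4.65, 6.87 and 5.69 in the AD_TG libraries, against 9.72, 8.99, 8.48 and 8.93 in the SJL_B6 libraries (difference -3.64, SE 1.02). In both, the SJL_B6 values lay close together and all AD_TG values lay below them. Kmt2c, a histone methyltransferase of enhancers, had 9.20, 9.01, 8.57 and 9.32 in the AD_TG libraries, against 10.56, 10.69, 10.97 and 10.38 in the SJL_B6 libraries (difference -1.62, SE 0.57), and Med25, another Mediator subunit, had 6.49, 2.99, 4.13 and 5.98 in the AD_TG libraries, against 8.71, 6.94, 9.41 and 8.90 in the SJL_B6 libraries (difference -3.59, SE 1.37), both with no overlap. Npr3, the clearance receptor of natriuretic peptides, had 10.26, 8.43, 9.35 and 8.49 in the AD_TG libraries, against 10.33, 10.61, 11.70 and 10.07 in the SJL_B6 libraries (difference -1.54, SE 0.57). A single AD_TG library, replicate 1, reached the SJL_B6 range of Npr3. Lrch4, a leucine-rich repeat protein, had 7.67, 7.37, 2.84 and 2.09 in the AD_TG libraries, against 9.57, 9.32, 7.09 and 9.39 in the SJL_B6 libraries (difference -3.85, SE 1.34). Jarid2, a cofactor of Polycomb repression, had 9.52, 4.60, 8.88 and 5.71 in the AD_TG libraries, against 8.81, 9.80, 9.19 and 10.38 in the SJL_B6 libraries (difference -2.37, SE 0.91), and Rabl6, a Rab-like GTPase, had 8.72, 7.99, 8.55 and 7.38 in the AD_TG libraries, against 10.73, 10.25, 9.78 and 8.62 in the SJL_B6 libraries (difference -1.69, SE 0.65). Lrch4, Jarid2 and Rabl6 also overlapped between the groups. In AD_B6 the means of Pofut2 and Hprt were 10.20 ± 0.67 and 8.83 ± 0.89 (SD, n = 4).

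**Figure D5:**
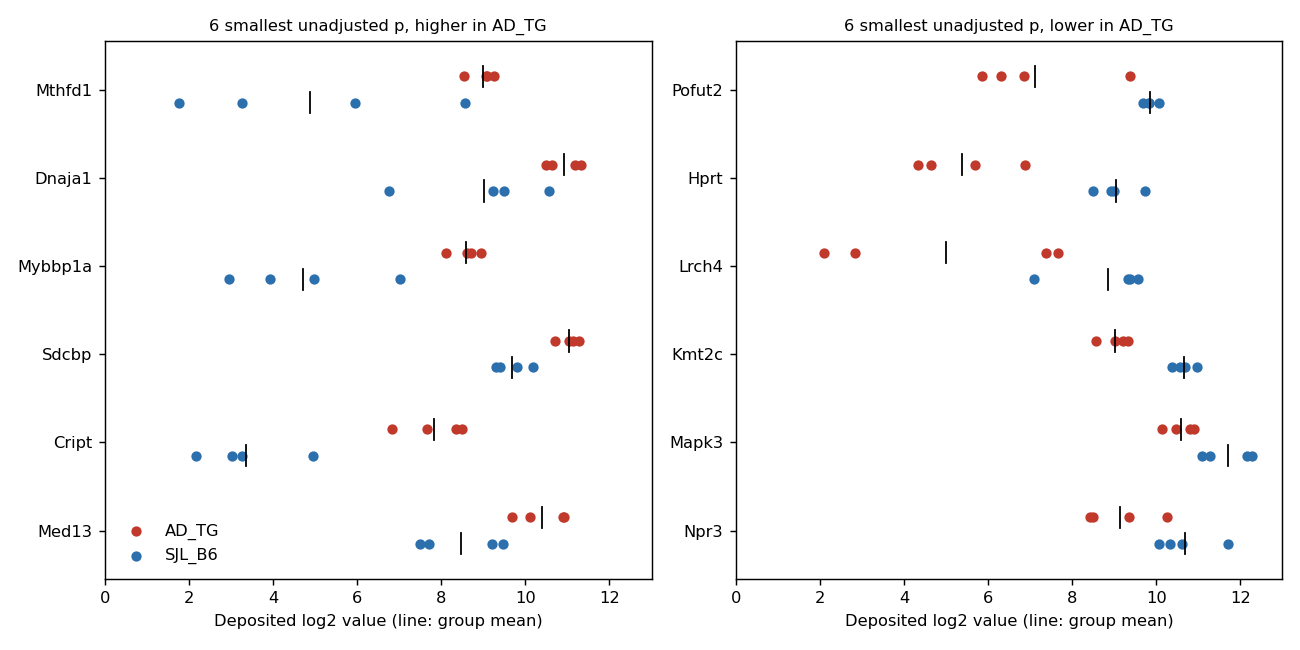
The deposited log2 values of the 6 well measured genes with the smallest unadjusted limma p in each direction are shown, AD_TG (red) above SJL_B6 (blue), with 1 dot a library and a black line at the group mean. On the left several SJL_B6 dots lie below 4, and on the right the SJL_B6 dots of Pofut2, Hprt and Kmt2c lie in a narrow band above every AD_TG dot.

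The precision limits what these values can show. The 95% interval of a single gene's difference reached a median of 1.69 log2 units either side among the well measured genes. For the 965 with a mean log2 value of 10 or more it reached 0.958, and for the 3976 below that level 1.89. Across well measured genes, the correlation between libraries had a median of 0.604 within AD_TG, 0.555 within SJL_B6 and 0.572 between the groups, as a description over genes, which are not independent replicates. The value between the groups lay between the values within them.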

How the data were processed

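The 12 libraries are QuantSeq 3' libraries of mRNA from magnetically sorted meningeal cells, 4 of each title, made from 500 ng of total RNA per the labels. The submitters' processing notes name Bowtie2 and bedtools, without versions, and give hg19 as the build. That build is a human one although the samples are mouse, and the scaling and the annotation are not given in the sources used here. Each deposited file holds 1 log2 value a gene entry; the authors' values fit log2 of a scaled count plus 1, since 91.3 to 100% of low linear values in a file came out as whole multiples of 1 step, within 0.15 of a step. The steps, 0.698 to 1.73 linear units, gave the assigned reads, and no count test was run.

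Of 23282 entries a file, 44 repeats of a symbol were left out, keeping the entry with the highest mean, which left 23238 symbols. Linear values of 10 or more in at least 4 libraries were required for the test (11955 genes). The deposited log2 values of all 12 libraries, unscaled, entered 1 fit with limma 3.58.1 in R 4.3.3 (group as the factor, empirical Bayes with a trend), with the contrast AD_TG minus SJL_B6, two-sided p-values and Benjamini-Hochberg adjustment over all genes tested at a threshold of 0.05. The steps were tested on simulated data, with each gene's values shuffled among the libraries and known shifts added to AD_TG. Among well measured genes with a mean log2 value below 10, 0% of 2-fold, 0% of 4-fold and 57.6% of 16-fold shifts were recovered. At 10 or more the shares were 2.94%, 57.6% and 97%. Of 11755 unchanged genes, 1 was called. The test could therefore miss most changes of 2-fold. Library measures were compared by exact permutation. Python 3.11.15 with pandas 2.3.3, numpy 2.4.6, scipy 1.17.1 and matplotlib 3.10.9 did the rest. Intervals are 95% and cover the spread between libraries only.

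The 78 gene lists, the members and the named genes were chosen with earlier results of these data known, and 9 sublists after the values were seen. The genes named are the 10 well measured ones in each direction with the smallest unadjusted p, for each family its 2 most abundant members and up to 3 in each direction with the smallest p, and Rcan1, App, Lyve1, Flt4, Pdpn, Pecam1 and Prox1; exceptions are named as such. Some genes that this rule selects are not reported here. Alternatives covered the pseudocount, the filter, the scaling, the libraries and the variance model of the fit, the replicate number as a block, the kind of file, and each library left out. The fit as reported did not pair libraries by replicate number, because the labels do not say what equal numbers share.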

Additional observations from a re-analysis of the deposited data

Results flagged for a closer look

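In 188 groups of 4 values, 1 library stood apart from the other 3 of its title by Dixon's criterion in 15 cases; chance alone gives about 1 in 20 groups. Among AD_TG libraries, replicate 1 had a mean of 10.09 for lymphatic identity genes, against 9.40 to 9.44 in the others. Replicate 3 was low for choroid plexus genes at 10.65 (others 11.91 to 12.05), for cullin and F-box genes at 7.52 (others 8.26 to 8.37) and for autophagy genes at 8.24 (others 8.93 to 9.05). Replicate 2 was low for splicing factors at 9.46 (others 9.68 to 9.69). Acap2 stood at 10.53 in AD_TG replicate 3 (others 8.90 to 9.13).

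Among SJL_B6 libraries, replicate 2 had the lowest choroid plexus mean, 7.08, against 11.30 to 11.82 in the others. The same library was low for the insulin-like growth factor system at 9.99 (others 10.73 to 10.76), which holds Igf2 of the choroid plexus list, and for the citric acid cycle at 8.57 (others 9.26 to 9.36). Replicate 1 was low for MHC class I presentation at 8.98 (others 10.15 to 10.32). Acap2 in the same library stood at 3.22 (others 7.53 to 8.17). Replicate 3 was low for pineal and photoreceptor genes at 9.89 (others 10.75 to 10.89) and for Lrch4 at 7.09 (others 9.32 to 9.57). Replicate 4 was high for vascular growth signals at 8.84 (others 8.18 to 8.24) and low for translation factors at 9.32 (others 9.48 to 9.51).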

How the results depend on the processing

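In all 25 settings the count of well measured genes past an adjusted p of 0.05 (limma, Benjamini-Hochberg) was 0, and over all genes tested it was 0 except without the variance trend, where it was 2 (the cause was not tested). With 1 library left out, 29 to 92 well measured genes were higher and 29 to 59 lower at an unadjusted p below 0.05. With AD_TG and SJL_B6 libraries alone in the fit these counts were 108 and 84. Family medians kept within the spread between libraries in 1626 of 1675 family and setting pairs, and named genes kept their direction in 639 of 647. Several settings could not move a difference, such as leaving out an AD_B6 library or the variance trend. Both shares are therefore high in part by design. In 43 of 67 families the median changed sign with 1 of the 8 libraries left out.

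The exceptions among named genes, in the files that list small values above 0 (a choice made after seeing the data), were Jarid2 at 0.20, Rcan1 at -1.11, Lyve1 at 0.075 and Flt4 at -4.68; with 1 library left out Rcan1 ran from -0.38 to 0.90 and Flt4 from -0.42 to 2.65. The library measures changed sign with 1 library left out, running from -857300 to 1044000 reads, from -84.2 to 368 genes, from -2.43 to 0.37 percentage points for Rn45s and from -1.55 to 1.88 for the 100 most abundant genes. With the replicate number as a block the count of calls was 0. Same-numbered libraries of AD_TG and SJL_B6 had deviations that correlated at 1.8e-05 to 0.0791, and 2 of 4 AD_TG libraries correlated best with their own number. Correlations this weak, over 4 pairs, cannot show whether equal numbers mark a shared day or animal.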

Other observations

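The 2 genes that passed only in the fit without a variance trend lie outside the well measured genes and were chosen after their values were seen. Zfr2, a zinc finger RNA-binding protein, had log2 values of 0.07, 1.34, 0.00 and 0.00 in the AD_TG libraries, against 8.27, 7.45, 7.94 and 5.74 in the SJL_B6 libraries (limma adjusted p = 0.00564 without the trend and 0.999 with it). Dnah6, a dynein heavy chain of cilia, had 6.98, 4.65, 6.68 and 6.38 in the AD_TG libraries, against 0.02, 0.00, 0.07 and 0.00 in the SJL_B6 libraries, with the same pair of adjusted p-values. In the AD_B6 libraries both genes were at 0.00 to 0.03. The groups did not overlap in either gene, in opposite directions.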
